A study of Rattus norvegicus with 4 samples.

Results

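The solute carriers are the largest group of membrane transporters, and 141 of their genes were followed here through the differentiation of a rat oral epithelial line. They are the genes whose annotated symbol starts with Slc and a digit and whose log2 value reached 6 on at least 1 of the 4 arrays. Slc7a11, Slc7a5 and Slc2a1 were left out by the same rule. The array carries 292 other Slc genes, so 151 stayed below that level, and 8802 of all 14218 genes on the array reached it. The rule used levels and not differences between days, but a gene that reached 6 on some arrays only had to differ between arrays. Of the 141 genes, 128 reached 6 on all 4 arrays, 2 on 3, 5 on 2 and 6 on 1. Just inside the limit, the highest values of Slc35f2, Slc10a7 and Slc6a17 were 6.06, 6.15 and 6.18, and just outside it those of Slc6a4, Slc35a2 and Slc45a4 were 5.96, 5.92 and 5.88. Both Slc4a1ap and Slc7a6os carry such a symbol without encoding a carrier, and they are counted but kept in a class of their own.

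The cells were ROE2, an immortal line of epithelial-like cells that came from fetal tongue of a transgenic Wistar rat. The transgene encodes tsSV40 large T-antigen, a temperature-sensitive form that drives proliferation while cells are kept cool. All cells were plated at 33 °C for 24 h on collagen type I in DMEM/F12 with 2% serum, insulin, transferrin, ethanolamine, selenite and 10 ng/ml EGF, and were then kept at 37 °C. RNA was taken after 0, 3, 6 or 9 days at 37 °C, and the day 0 cells, which the labels call the control, carry the same transgene. Each day was measured on 1 Affymetrix 3' expression array, so no test was possible, an effect of the day cannot be told apart from that of its array, and "higher" and "lower" describe these 4 arrays. The words are used as counts where the log2 values of 2 arrays were 1 or more apart, which is 2-fold. In a whole culture, fewer cells of a kind and less RNA per cell cannot be told apart.

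Solute carriers move amino acids, sugars, ions, metals, nucleotides and vitamins across the plasma membrane and the membranes of organelles, most often by coupling the substrate to a gradient of sodium, protons or another solute. Some need a partner: amino acid exchangers of the Slc7 family are held at the surface by the heavy chain Slc3a2, and lactate carriers of the Slc16 family by the glycoprotein basigin. In stratified epithelium they are known for feeding dividing basal cells with amino acids, for fatty acid uptake that supplies the barrier lipids, and for zinc supply. The family numbers group carriers by sequence, and here genes were placed in substrate classes by family or, for some, singly. The Slc5 and Slc23 families are thus each split between classes.

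Promoters of 6 members are shown because the results below turn on these genes. Slc1a4 and Slc7a1 had their highest value on day 3, Slc25a48 was higher on day 9 than on day 0, Slc14a1 and Slc25a4 were lower on all later days, and Slc39a13 was furthest below day 0 on day 3. They were chosen after their values were seen. Each runs 5′ to 3′ from 250 bases before the annotated start to 50 after it, from RefSeq on build GRCr8, at chr14:98761513-98761812 on the minus strand for Slc1a4, chr12:11664238-11664537 on the plus strand for Slc7a1, chr17:8172327-8172626 on the minus strand for Slc25a48, chr18:73864594-73864893 on the minus strand for Slc14a1, chr16:52805271-52805570 on the plus strand for Slc25a4 and chr3:97502995-97503294 on the minus strand for Slc39a13. Capitals mark matches, on either strand, to 6 motifs: the amino acid response motif TGATGNAA, the E-box CACGTG, the AP-1 motif TGANTCA, the CCAAT box, the TATA box motif TATAAA and the antioxidant motif TGACNNNGC. In Slc39a13 they also mark the metal motif TGCNCNC. Slc1a4, Slc7a1, Slc25a48 and Slc25a4 matched the metal motif too, but it is not marked in them.
Slc1a4: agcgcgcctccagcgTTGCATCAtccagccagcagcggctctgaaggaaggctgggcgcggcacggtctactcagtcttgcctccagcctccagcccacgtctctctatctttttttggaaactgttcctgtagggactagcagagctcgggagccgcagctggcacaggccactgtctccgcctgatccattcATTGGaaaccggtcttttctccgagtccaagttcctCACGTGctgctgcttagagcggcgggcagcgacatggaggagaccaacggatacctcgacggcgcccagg
Slc7a1: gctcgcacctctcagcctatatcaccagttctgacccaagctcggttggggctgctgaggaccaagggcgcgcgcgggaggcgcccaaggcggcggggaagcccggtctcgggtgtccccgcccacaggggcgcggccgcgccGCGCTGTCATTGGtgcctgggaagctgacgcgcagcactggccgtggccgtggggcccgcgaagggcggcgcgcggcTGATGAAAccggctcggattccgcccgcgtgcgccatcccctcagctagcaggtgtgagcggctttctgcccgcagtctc
Slc25a48: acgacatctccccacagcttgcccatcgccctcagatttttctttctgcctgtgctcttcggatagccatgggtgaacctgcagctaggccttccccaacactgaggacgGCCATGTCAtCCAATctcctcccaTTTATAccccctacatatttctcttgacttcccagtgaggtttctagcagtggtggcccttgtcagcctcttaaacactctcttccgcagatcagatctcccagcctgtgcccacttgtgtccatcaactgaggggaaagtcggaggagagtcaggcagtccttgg
Slc14a1: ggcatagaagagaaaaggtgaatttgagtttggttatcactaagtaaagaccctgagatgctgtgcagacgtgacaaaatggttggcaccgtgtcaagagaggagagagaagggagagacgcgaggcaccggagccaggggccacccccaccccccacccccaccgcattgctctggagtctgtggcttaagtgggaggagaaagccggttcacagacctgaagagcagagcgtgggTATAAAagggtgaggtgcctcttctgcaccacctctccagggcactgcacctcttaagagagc
Slc25a4: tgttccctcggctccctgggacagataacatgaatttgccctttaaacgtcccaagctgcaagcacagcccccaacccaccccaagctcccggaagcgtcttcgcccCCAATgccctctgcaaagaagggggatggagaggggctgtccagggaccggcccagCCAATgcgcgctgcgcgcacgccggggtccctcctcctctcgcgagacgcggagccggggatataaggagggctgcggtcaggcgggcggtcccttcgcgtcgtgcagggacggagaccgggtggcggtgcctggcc
Slc39a13: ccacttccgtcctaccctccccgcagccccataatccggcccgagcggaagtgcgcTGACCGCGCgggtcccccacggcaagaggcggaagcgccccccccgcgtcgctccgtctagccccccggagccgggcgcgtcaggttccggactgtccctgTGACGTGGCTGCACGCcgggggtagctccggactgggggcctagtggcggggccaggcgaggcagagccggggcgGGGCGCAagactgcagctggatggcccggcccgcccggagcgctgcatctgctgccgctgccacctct
The amino acid response motif TGATGNAA, known as the element bound by the stress factor ATF4, was matched at position -235 in Slc1a4 and -30 in Slc7a1, counted from the start of the gene to the leftmost base of the match. That motif was found in 3 of the 114 member promoters that matched the RefSeq table, which is 2.63%, in 3.82% of all 27457 promoters of that length and in 1.84% of the 7442 promoters of genes that reached 6. Slc1a4 also held the E-box at -20 and a CCAAT box, and Slc7a1 a CCAAT box that overlaps an antioxidant match at its edge. Slc25a48 held the CCAAT box, the TATA box motif and the antioxidant motif, Slc14a1 held the TATA box motif at -13, and Slc25a4 held the CCAAT box at 2 places. In Slc39a13 there were 2 antioxidant matches and 2 metal matches, 1 of each of them side by side. The metal motif is short and was found in 50.1% of all promoters and 62.3% of member promoters. The other shares, over members and over all promoters, were 14.9% and 6.65% for the E-box, 7.02% and 7.33% for the AP-1 motif, 39.5% and 37.7% for the CCAAT box, 4.39% and 14.3% for the TATA box motif, and 20.2% and 12.2% for the antioxidant motif. Among promoters of genes that reached 6 the share was 10.3% for the E-box, 4.99% for the AP-1 motif, 38.3% for the CCAAT box, 6.17% for the TATA box motif, 60.5% for the metal motif and 14.6% for the antioxidant motif. A match describes letters in this window and is no evidence of binding.

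All levels are on the log2 scale, as the authors obtained them with RMA, and the level of 1 gene is not set against that of another, since probes differ. Of 6 markers of stratified epithelium found, all 6 reached 6, among them Krt5, Krt14 and Cdh1. None of 6 fibroblast or 4 endothelial markers did, while 1 of 4 leukocyte (Cd68), 1 of 6 muscle (Myh1) and 1 of 3 neural markers (Tubb3) did, and Ptprc stayed between 2.79 and 2.93. Bacterial control probe sets, which should find no target, reached 4.19 on day 0 and 4.56 on day 9. Hybridisation spike-ins were 0.14, 0.39 and 0.63 above day 0 on days 3, 6 and 9, so centring on them would lower each difference from day 0 by that amount. Probe sets for the 3' and 5' ends of beta-actin differed by 2.25, 2.44, 1.22 and 2.35 on days 0, 3, 6 and 9, so the day 6 array stood apart, and its part in the results was not tested. For Gapdh the same difference was 0.10, 0.04, -0.02 and 0.18.

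On day 3, 8 of the 141 carrier genes were higher than on day 0 and 5 were lower, in a family whose median hardly moved. The zinc carrier gene Slc39a13 was furthest below day 0. The inositol carrier gene Slc5a11 was furthest above it, but it reached 6 on day 3 only, which made it a member, and its day 0 value was near background. The 8 are 5.67% of members, against 4.31% of all 8802 genes, and the 5 are 3.55%, against 2.15%. The median over members was 0.03, against -0.05 over all genes, and 68.1% of members lay within 1.5-fold of day 0, against 79.8% of all genes. The 8 higher genes were Slc5a11, Slc6a9, Slc30a2, Slc25a48, Slc4a7, Slc27a4, Slc46a3 and Slc31a2, and the 5 lower genes were Slc39a13, Slc25a4, Slc11a2, Slc39a10 and Slc14a1. After spike-in centring 4 were higher and 10 lower, against 3.23% and 3.43% of all genes. Which direction held more genes on day 3 thus depended on the scaling.

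On day 6 the lower side had grown. Of the members 11 (7.80%) were higher and 16 (11.3%) lower than on day 0, against 5.74% and 8.08% of all genes, and the median was -0.16, against -0.18. The adenine nucleotide carrier gene Slc25a4 was 4.17-fold and the zinc carrier gene Slc39a13 4.09-fold lower, and the urea carrier gene Slc14a1, under the brightest bacterial control on day 6, at least 3.69-fold lower. On the higher side stood the zinc carrier gene Slc30a2, which reached 6 on days 3 and 6 only and so is a member through the arrays where it is high. Centring on the median gene gave 13 higher and 8 lower members, against 7.82% and 5.08% of all genes. Spike-in centring gave 2 and 30, against 2.85% and 21.6%. On day 9, 9 members (6.38%) were higher and 14 (9.93%) lower, against 5.57% and 6.25% of all genes, with a median of -0.09 against -0.14. The same centrings gave 11 and 13, against 6.61% and 4.67% of all genes, and 1 and 49, against 1.98% and 33.1%. The comparisons of days 3, 6 and 9 share the day 0 array.

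**Figure D1:**
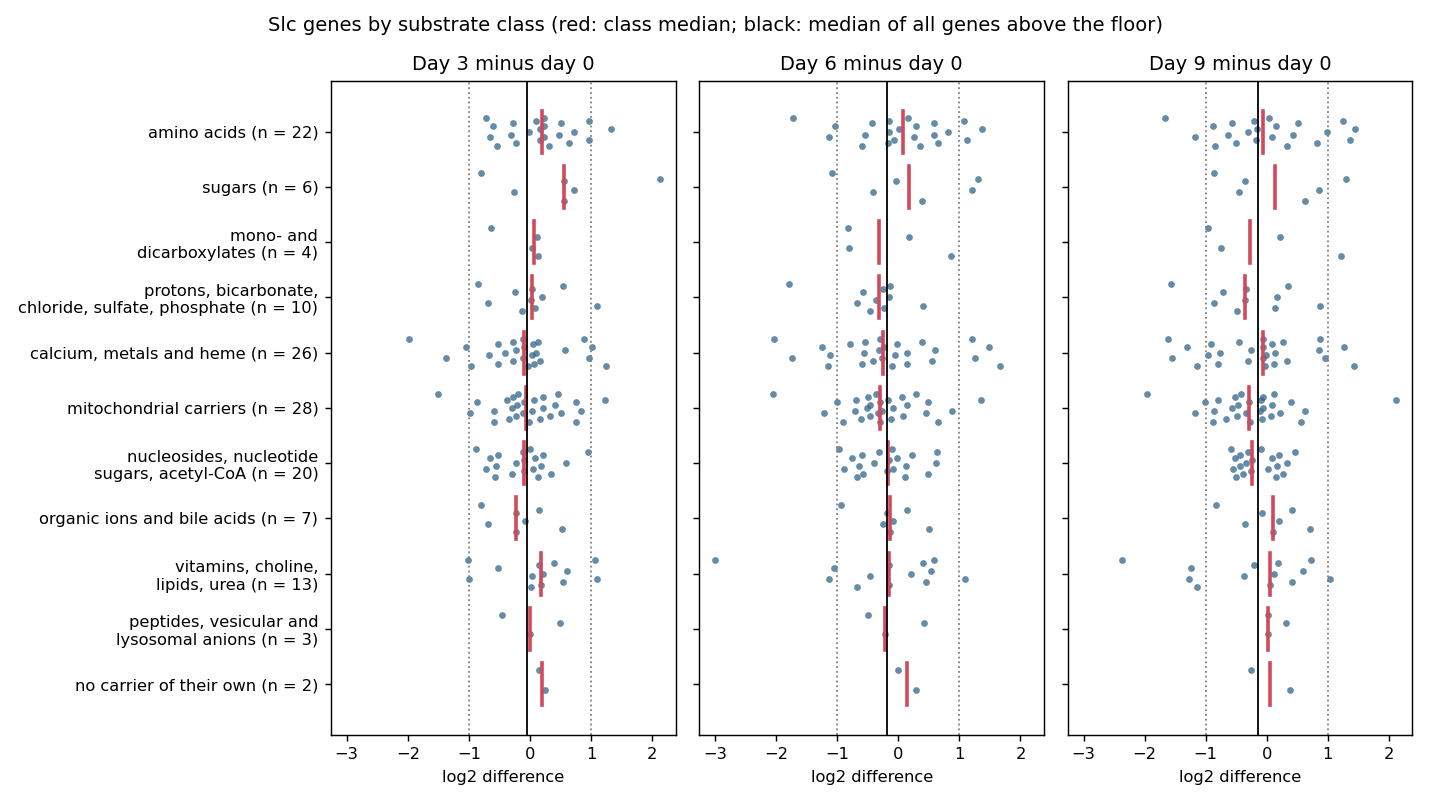
Log2 difference from day 0 on days 3, 6 and 9 for each of the 141 Slc genes, 1 point per gene, in rows by substrate class with the number of genes. Red bars are class medians, the black line is the median of all 8802 genes (-0.05, -0.18 and -0.14), and dotted lines mark 2-fold. The sugar class lies farthest to the right on day 3, with a median of 0.56 over 6 genes. The points at -3.00 (Slc14a1, day 6) and 2.13 (Slc5a11, day 3) rest on a value below or near the bacterial controls.

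Between days 3 and 6, 6 members were lower and 0 higher, which is 4.26% and 0.00% of members, against 1.60% and 0.829% of all genes. The 6 were Slc14a1, Slc27a3, Slc25a33, Slc12a2, Slc25a36 and Slc66a3. Slc14a1 was below 6 on both days and under the brightest bacterial control on day 6. Set against that control it was at least 1.84-fold lower, short of 2-fold. After centring on the median gene 3 members were lower and 1 higher, against 1.00% and 1.20% of all genes. From day 6 to day 9 only Slc4a2 was 2-fold higher and only Slc41a3 2-fold lower, each 0.709% of members, against 0.250% and 0.591% of all genes. On this step 90.8% of members lay within 1.5-fold. Slc41a3 was below 6 on both days, and with values below 6 set to 6 it was not counted as lower.

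**Figure D2:**
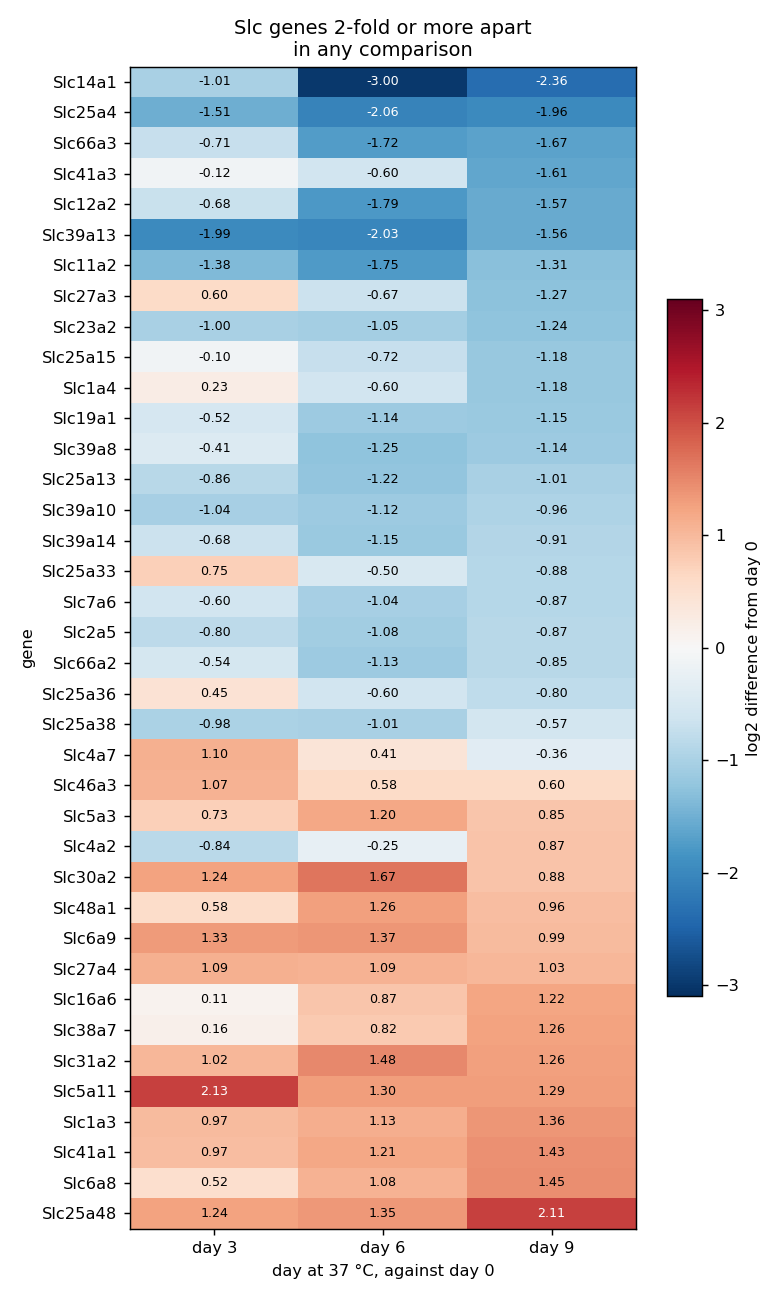
Log2 difference from day 0 on days 3, 6 and 9 for the 38 Slc genes that were 2-fold or more apart in any of the 5 comparisons, sorted by day 9. Red is higher and blue lower than day 0, and each cell prints its value. Slc25a48 stands at the bottom with 2.11 on day 9 and Slc25a4 near the top with -1.96; the day 6 and day 9 cells of Slc14a1 rest on values below the brightest bacterial control.

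The amino acid class held 22 of 54 genes on the array and had no single pattern: some carriers peaked on day 3, some climbed to day 9 and others were highest on day 0 or day 6. Its median difference from day 0 was 0.19, 0.08 and -0.06 on days 3, 6 and 9, against -0.05, -0.18 and -0.14 over all genes. On day 9, 3 members were higher and 2 lower, against 5.57% and 6.25% of all genes. Slc1a4, the exchanger of alanine, serine and cysteine, whose promoter is shown above, read 10.44, 10.67, 9.83 and 9.26 on days 0, 3, 6 and 9 and so was 2.26-fold lower on day 9 than on day 0. Slc1a5, the main glutamine carrier of many dividing cells, read 9.01, 9.73, 9.27 and 8.37. Slc3a2, the heavy chain that brings amino acid exchangers to the surface, read 11.26, 11.90, 11.61 and 10.94. These 3 genes were highest on day 3 and lowest on day 9, but Slc1a5 and Slc3a2 stayed within 2-fold of day 0 throughout. Slc7a1, the carrier of arginine and lysine, followed with 11.22, 11.70, 11.06 and 10.66, yet another of its probe sets read 9.65, 9.99, 10.28 and 9.87, highest on day 6 and not below day 0 on day 9. Slc38a2, the sodium-coupled carrier of small neutral amino acids, read 12.27, 12.59, 12.28 and 11.77. Both excluded exchangers were highest on day 3 too: Slc7a11, which imports cystine, read 7.11, 9.96, 8.63 and 7.70, and Slc7a5, which imports leucine, 9.42, 10.50, 9.42 and 8.28. The lowest day was day 0 for Slc7a11 and day 9 for Slc7a5.

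Genes for a creatine, a glycine and a glutamate carrier were higher after the move to 37 °C. Slc6a8, which takes up creatine, read 8.90, 9.41, 9.97 and 10.35 on days 0, 3, 6 and 9, a steady climb to 2.73-fold. Its other probe set above 6 read 9.30, 9.23, 9.52 and 9.49 and was 0.18 higher on day 9, so the size rests on the probe set. Slc6a9, the glycine carrier, went from 7.01 to 8.34, 8.38 and 7.998, 2.51-fold higher on day 3, and another probe set had 1.34, 1.41 and 1.13 on the 3 later days. A further probe set of Slc6a9, below 6 on all arrays, had only 0.39, 0.47 and 0.48. Slc1a3, which takes up glutamate and aspartate, read 6.01, 6.99, 7.14 and 7.37 and was 2.57-fold higher on day 9. The lysosomal glutamine exporter gene Slc38a7 read 6.62, 6.78, 7.44 and 7.87, near its day 0 value on day 3 and 2.39-fold higher on day 9.

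On the lower side of the class, Slc66a3, a multi-pass membrane protein gene with no settled substrate, read 10.14, 9.42, 8.41 and 8.47 and was 3.30-fold lower on day 6. Its relative Slc66a2 read 8.17, 7.63, 7.04 and 7.32, and Slc7a6, an exchanger of cationic for neutral amino acids, 8.59, 7.98, 7.55 and 7.71. Both were over 2-fold lower on day 6 and under 2-fold on day 9. Slc1a1, another glutamate and cysteine carrier gene, had -0.66, -0.07 and 0.83 on days 3, 6 and 9, and its other probe set -0.52, -0.48 and -0.13. The remaining 9 amino acid class genes stayed within 2-fold of day 0. They include the dopamine carrier gene Slc6a3, at 0.96 on day 3, the lysosomal carrier genes Slc36a1 and Slc38a9, at 0.43 and 0.15 on day 9, and Slc43a2, which carries branched amino acids, at 0.04.

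**Figure D3:**
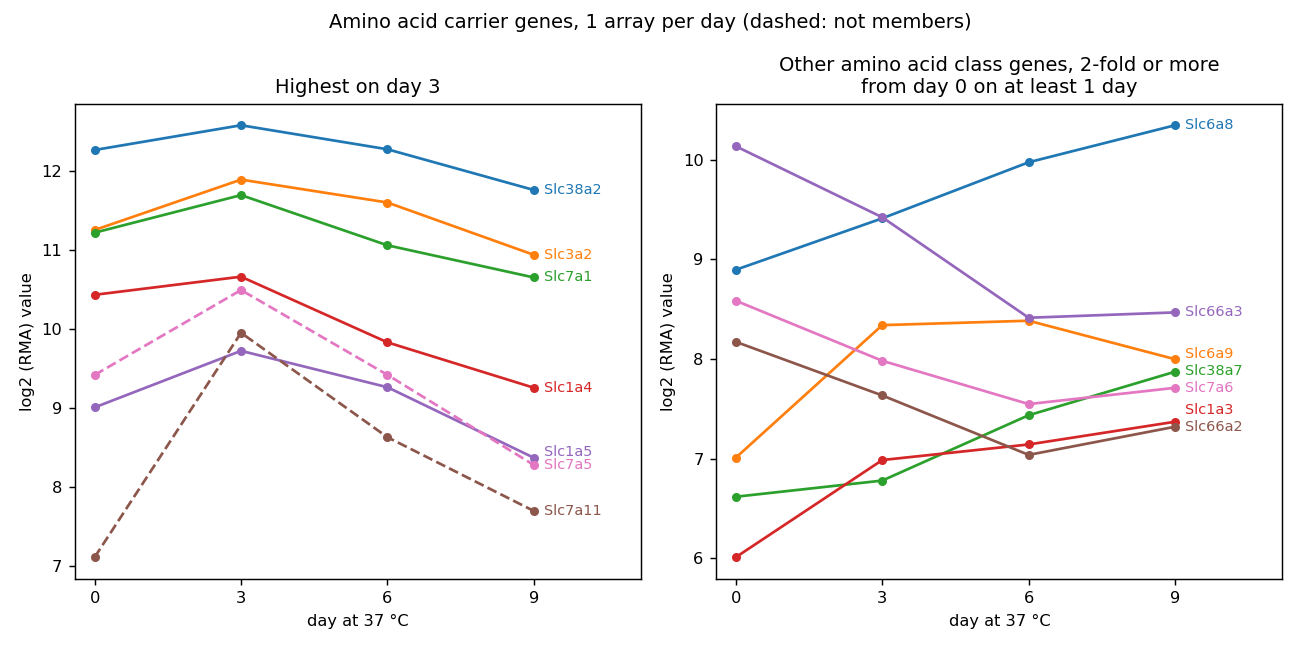
Log2 (RMA) values of amino acid class genes on days 0, 3, 6 and 9 at 37 °C, 1 array per day, with no error bars since there are no replicates. Left, 5 members and the excluded Slc7a11 and Slc7a5 (dashed), all highest on day 3; right, the members 2-fold or more from day 0 on at least 1 day other than Slc1a4, of which Slc6a8 climbs from 8.90 to 10.35 and Slc66a3 drops from 10.14 to 8.47.

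Among 6 sugar class genes the inositol carriers were higher and the fructose carrier lower. Slc5a11, which couples inositol to sodium, read 4.27, 6.40, 5.57 and 5.56. Day 0 was close to the brightest bacterial control of that array, at 4.19, and the gene reached 6 on day 3 only, so it is a member through that array. It was 4.37-fold higher on day 3 and 2.45-fold on day 9. Slc5a3, the inositol carrier known for its response to osmotic stress, read 6.97, 7.70, 8.18 and 7.82 and was 2.30-fold higher on day 6. Slc2a5, the fructose carrier, was highest on day 0 at 9.70 and read 8.89, 8.61 and 8.83 later, 2.12-fold lower on day 6. The glucose carrier gene Slc2a8 was 0.62 higher on day 9, Slc37a4, the glucose 6-phosphate carrier of the endoplasmic reticulum, was at -0.36, and Slc50a1 went from 8.48 to 9.04 on day 3 and 8.02 on day 9. The excluded Slc2a1, the main glucose carrier of epithelia, read 9.77, 10.59, 10.37 and 10.74. Slc2a3, Slc2a4 and Slc5a1, other glucose carriers, were below 6 on all 4 arrays.

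The 4 carboxylate carrier genes differed in direction. Slc16a1, the lactate and pyruvate carrier MCT1, read 10.67, 10.70, 9.87 and 9.70, level on day 3 and 1.96-fold lower on day 9, just short of the limit. Slc16a6 read 8.10, 8.21, 8.97 and 9.32 and was 2.33-fold higher on day 9, with 0.82 in another probe set. Slc16a13 was at -0.75 on day 9 and the kidney-type dicarboxylate carrier gene Slc13a2 at 0.21. Basigin, the partner of Slc16a1, was nearly level, with Bsg at 11.59 on day 0 and 11.45 on day 9, and Slc16a3, the lactate exporter gene, stayed between 4.74 and 5.10.

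In the class of protons, bicarbonate, chloride, sulfate and phosphate, 10 of 38 genes reached 6. Among them the chloride importer was furthest below its day 0 value on days 6 and 9. Slc12a2, which carries sodium, potassium and chloride into cells and sets cell volume, read 12.37, 11.68, 10.58 and 10.80. The drop came on both steps to day 6, where it was 3.45-fold lower than on day 0, and it was still 2.97-fold lower on day 9. The potassium-chloride exporter gene Slc12a7 was at -0.71 on day 9. The bicarbonate carrier genes had different patterns: Slc4a7, which brings bicarbonate in with sodium, read 8.81, 9.91, 9.21 and 8.45, while Slc4a2, which exchanges it for chloride, read 7.55, 6.70, 7.29 and 8.42. Slc4a7 was thus highest and Slc4a2 lowest on day 3, and from day 6 to day 9 Slc4a2 was 1.13 higher, the largest difference of any member on that step. In another probe set of Slc4a7 the day 3 difference was 1.01 and day 6 was higher still, at 1.30. The phosphate carrier genes differed too, with Slc20a1 at 11.64, 11.84, 11.49 and 11.99 and Slc20a2 at 8.21, 8.29, 7.75 and 7.34, a day 9 difference of 0.34 and -0.87.

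Among metal carriers, zinc carriers of the Slc39 family, which bring zinc into the cytosol, lay mostly below day 0. The class held 26 of 38 genes, with medians of -0.11, -0.25 and -0.06. On day 6 it had 4 higher and 5 lower members, against 5.74% and 8.08% of all genes. From day 3 to day 6 it had 0 of either, against 0.829% and 1.60%. Of 9 Slc39 genes 2, 4 and 2 were 2-fold lower on days 3, 6 and 9 and 0 were higher, against 2.15%, 8.08% and 6.25% of all genes lower. Their medians were -0.28, -0.54 and -0.77, against -0.05, -0.18 and -0.14 over all genes. The 7 genes of the Slc30 family, which take zinc out of the cytosol, had medians of -0.10, -0.11 and -0.01. Of the 7, 1, 1 and 0 were higher, against 4.31%, 5.74% and 5.57% of all genes, and 0 were lower. Slc39a13, a zinc carrier of intracellular vesicles needed for connective tissue, read 9.21, 7.23, 7.18 and 7.65. Day 0 stood alone, and the gene was 3.96-fold, 4.09-fold and 2.95-fold lower on the later days. Slc39a10, a zinc importer of the surface, read 10.27, 9.23, 9.15 and 9.31, also with day 0 apart. Slc39a8, which imports zinc and manganese, read 6.40, 5.99, 5.15 and 5.27. It reached 6 on day 0 only, so it is a member through the array where it is high. The counts of lower Slc39 genes on days 6 and 9 include it. Slc39a14, which imports zinc, iron and manganese, read 8.19, 7.51, 7.05 and 7.28, and its day 6 difference of -1.15 became -0.47 with the mean over its probe sets. Slc39a1 went the other way, from 10.67 to 11.52, a difference of 0.86, and Slc39a3, Slc39a6, Slc39a7 and Slc39a11 were at -0.06, 0.26, -0.26 and -0.77 on day 9.

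Slc30a2, which loads zinc into secretory vesicles, read 4.87, 6.11, 6.53 and 5.74 and was 3.17-fold higher on day 6, with another probe set at 1.38, 0.71 and 0.05 on days 3, 6 and 9. Slc30a4 was 0.89 higher on day 3 and 0.33 on day 9. Slc30a7, a carrier of the Golgi apparatus, was 0.97 lower on day 3 and back at -0.05 on day 9, and Slc30a5, a carrier of the early secretory pathway, was at -0.79. The export carrier gene Slc30a1 stayed below 6 on all arrays.

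**Figure D4:**
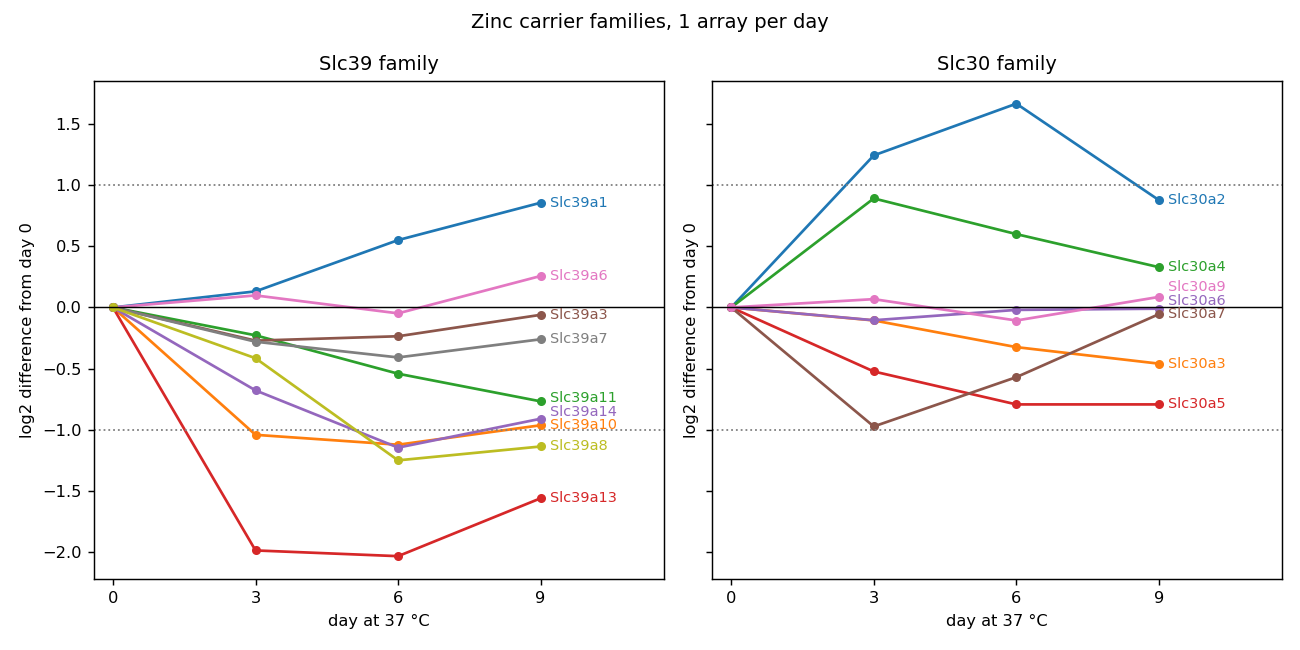
Log2 difference from day 0 on days 0, 3, 6 and 9 for the 9 Slc39 genes (left) and the 7 Slc30 genes (right), 1 line per gene, 1 array per day and no error bars. Dotted lines mark 2-fold; Slc39a13 lies at -1.99, -2.03 and -1.56 and Slc30a2 at 1.24, 1.67 and 0.88. After spike-in centring every point would be 0.14, 0.39 and 0.63 lower on days 3, 6 and 9.

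For iron, copper, magnesium and heme the members differed gene by gene. Slc11a2, the importer of ferrous iron, read 9.62, 8.24, 7.88 and 8.32, with day 0 above the rest and 3.35-fold over day 6. A dimmer probe set of the same gene read 7.10, 7.02, 6.68 and 6.88, a day 9 difference of -0.22 in place of -1.31. The iron exporter gene Slc40a1 stayed below 6. The copper carrier gene Slc31a2, a relative of the main importer found in endosomes, read 8.60, 9.63, 10.08 and 9.87 and was 2.78-fold higher on day 6, and its other probe set had 0.64, 1.53 and 1.15. The main copper importer gene Slc31a1 read 9.25, 9.41, 9.63 and 9.36, within 1.5-fold of day 0, but a dimmer probe set of it was 1.42 higher on day 6. Of the magnesium family, Slc41a1 climbed from 6.73 over 7.69 and 7.94 to 8.15, 2.69-fold. Its relative Slc41a3 read 6.45, 6.33, 5.85 and 4.84, so most of its 3.06-fold decline lay between days 6 and 9. Both values of that step were below 6. The gene reached 6 on days 0 and 3 only, so it is a member through arrays where it is high. The heme carrier gene Slc48a1 read 8.31, 8.89, 9.57 and 9.27 and was 2.40-fold higher on day 6. The calcium exchanger genes Slc8a1, Slc8b1 and Slc24a3 were at -0.02, 0.13 and -0.31 on day 9.

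The largest class, the mitochondrial carriers of the Slc25 family, had 28 of 40 genes and medians of -0.06, -0.30 and -0.28, against -0.05, -0.18 and -0.14 over all genes. On day 9, 1 of the 28 was higher and 3 lower, against 5.57% and 6.25% of all genes. Slc25a4, the muscle-type exchanger of ADP for ATP, read 10.65, 9.14, 8.59 and 8.69, with day 0 well above the rest, and was 2.86-fold lower on day 3 and 3.90-fold on day 9. Slc25a5, the exchanger of dividing cells, read 12.45, 11.86, 12.29 and 12.04, never 2-fold from day 0. Slc25a48, which carries choline into the matrix, read 5.27, 6.51, 6.62 and 7.38. Its day 0 value was below 6 and its day 9 value the highest, 4.31-fold above day 0. Another probe set, below 6 on all arrays, had 0.40, 0.71 and 1.44.

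Amino acid carrier genes of the inner membrane differed in direction. Slc25a44, for branched amino acids, was at 0.63 on day 9 and Slc25a12, a relative of Slc25a13, at 0.08. Slc25a13, the exchanger of aspartate for glutamate, read 9.46, 8.60, 8.24 and 8.45, and its other probe set above 6 had -0.57, -1.11 and -0.69. Slc25a15, the ornithine carrier of the urea cycle, read 8.96, 8.86, 8.24 and 7.78, a decline that began after day 3. Its 3 other probe sets above 6 were at -1.11, -0.87 and -0.35 on day 9, beside -1.18. Slc25a38, which brings in glycine for heme synthesis, read 7.08, 6.10, 6.07 and 6.51. The pyrimidine nucleotide carrier genes shared a day 3 maximum: Slc25a33 read 7.17, 7.92, 6.67 and 6.29 and Slc25a36 read 8.96, 9.41, 8.35 and 8.16. From day 3 to day 6 their differences were -1.25 and -1.06. Another probe set of Slc25a36 had -0.08 on day 3 and -1.16 on day 9.

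Other mitochondrial carrier genes, chosen as examples, stayed within 2-fold. Slc25a3, the phosphate carrier, was at -0.87 on day 9, and Slc25a1, the citrate carrier for lipid synthesis, read 10.14, 9.79, 9.77 and 9.64. The glutathione carrier gene Slc25a39 had differences of 0.51 and 0.11 on days 3 and 9, the carnitine carrier gene Slc25a20 of 0.22 and -0.12, and Slc25a25, which exchanges ATP-magnesium for phosphate, of 0.83 and 0.56. The iron carrier genes Slc25a37 and Slc25a28 were at -0.67 and -0.07 on day 9. Slc25a51l1 stood out on day 6 only, with 7.35, 7.33, 8.23 and 7.56.

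None of the 20 genes for nucleosides, nucleotide sugars and acetyl-CoA was 2-fold from day 0 on any day, although another probe set of Slc35b4 was at -1.08 on day 6. Of all genes, 4.31%, 5.74% and 5.57% were 2-fold higher and 2.15%, 8.08% and 6.25% lower on days 3, 6 and 9. The medians of the 20 were -0.10, -0.18 and -0.25. The nucleoside carrier genes Slc29a2 and Slc29a3 were at -0.98 and -0.67 on day 6, although another probe set of Slc29a2 was at -0.10, and the nucleobase carrier gene Slc23a4 was 0.95 higher on day 3. Among Golgi and reticulum carriers of nucleotide sugars, Slc35a1, for sialic acid, read 9.91, 9.62, 9.32 and 9.40, Slc35c1, for fucose, 7.96, 7.39, 7.08 and 7.38, and Slc35f5 was at 0.47 on day 9. Slc35a1 and Slc35c1 were thus at their lowest on day 6. Another probe set of Slc35a1 was also lowest on day 6, at 7.08. A further one was lowest on day 9, with a difference from day 0 of -0.999. Slc33a1, which carries acetyl-CoA into the reticulum, read 9.79, 9.68, 9.48 and 9.35. The 7 organic ion carriers also stayed within 2-fold. The carnitine carrier gene Slc22a5 read 6.57, 5.76, 5.63 and 5.74, above 6 on day 0 only, and Slc22a4, for ergothioneine, was at -0.35 on day 9. In the class of peptides, vesicular transmitters and lysosomal anions, the sialic acid exporter gene Slc17a5 was 0.50 higher on day 3, the peptide and histidine carrier gene Slc15a4 differed by 0.02 on day 9 and the polyamine carrier gene Slc18b1 by 0.01.

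Carriers of vitamins, choline, lipids and urea included a member that came down to background. Slc14a1, the urea carrier of red cells and some epithelia, read 6.40, 5.39, 3.40 and 4.03. It reached 6 on day 0 only and was under the brightest bacterial control on days 6 and 9, so it was at least 3.69-fold lower on day 6 and at least 3.58-fold on day 9, set against those controls at 4.51 and 4.56. Another probe set of it, at most 4.86 and so close to those controls, had 0.18, 0.22 and -0.10. The folate carriers went in different directions. Slc19a1, the reduced folate carrier, read 8.14, 7.62, 6.998 and 6.98 and was 2.22-fold lower on day 9. Slc46a1, the folate carrier that works with protons, went from 6.89 to 7.62, a difference of 0.73. Slc23a2, the ascorbate carrier, read 6.84, 5.85, 5.79 and 5.60 and was 1.99-fold lower on day 3 and 2.36-fold on day 9. It reached 6 on day 0 only, so it is a member through the array where it is high. Another probe set of it, at most 3.86, was at 0.01 on day 9.

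Fatty acid carriers divided. Slc27a4, which is needed for the lipid barrier of the skin, read 9.51, 10.60, 10.60 and 10.54, with day 0 below the rest and 2.13-fold, 2.13-fold and 2.04-fold on the later days. Slc27a3 read 7.61, 8.21, 6.93 and 6.34, 2.42-fold lower on day 9 after a maximum on day 3, and Slc27a1 was at -0.38. Slc46a3, a lysosomal carrier, read 6.02, 7.09, 6.60 and 6.62, highest on day 3. The choline carrier genes Slc44a1 and Slc44a2 were 0.55 and 0.40 higher on day 3 and 0.19 and 0.42 on day 9, with -0.75 and -0.09 on day 9 in other probe sets of Slc44a1. The thiamine, biotin and riboflavin carrier genes Slc19a2, Slc5a6 and Slc52a2 were at 0.12, 0.06 and -0.21 on day 9.

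Other transport genes were counted by the same rule, to be read against 4.31%, 5.74% and 5.57% of all genes higher and 2.15%, 8.08% and 6.25% lower on days 3, 6 and 9. Of 19 genes with an ABC family symbol that reached 6, 1 was higher and 2 lower on each of days 3, 6 and 9. The 19 include Abce1, Abcf1, Abcf2 and Abcf3, which carry such a symbol without encoding a transporter and stayed within 2-fold of day 0. Of 8 sodium pump subunit and partner genes, 1 was higher and 2 lower on each day, with the subunit gene Atp1b1 at 9.05, 7.59, 7.37 and 7.68 and the pump regulator gene Fxyd4 at 7.52, 8.73, 8.77 and 9.37. Atp1b3, another beta subunit, was at -0.13 on day 9. Of 3 aquaporin genes 2 were higher on each day, namely Aqp3, the glycerol and water channel of epidermis, at 10.87, 12.30, 12.51 and 12.31, and Aqp9, at 8.56, 10.09, 10.23 and 9.95. The 1 Slco gene that reached 6 was at -0.07 on day 9.

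How far a probe set can be trusted was gauged from members with several. Of the 141 genes 90 had 1 probe set and 51 several, and 35 other probe sets of 28 genes reached 6. Their difference from day 0 departed from that of the chosen probe set by a median of 0.17, 0.35 and 0.44 on days 3, 6 and 9. All 8 other probe sets of members called on day 9 lay on the same side of 0, and 2 of the 8 were also 2-fold or more apart. On days 3 and 6, 5 of 5 and 6 of 6 had the same sign, and 3 and 3 were 2-fold.

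**Figure D5:**
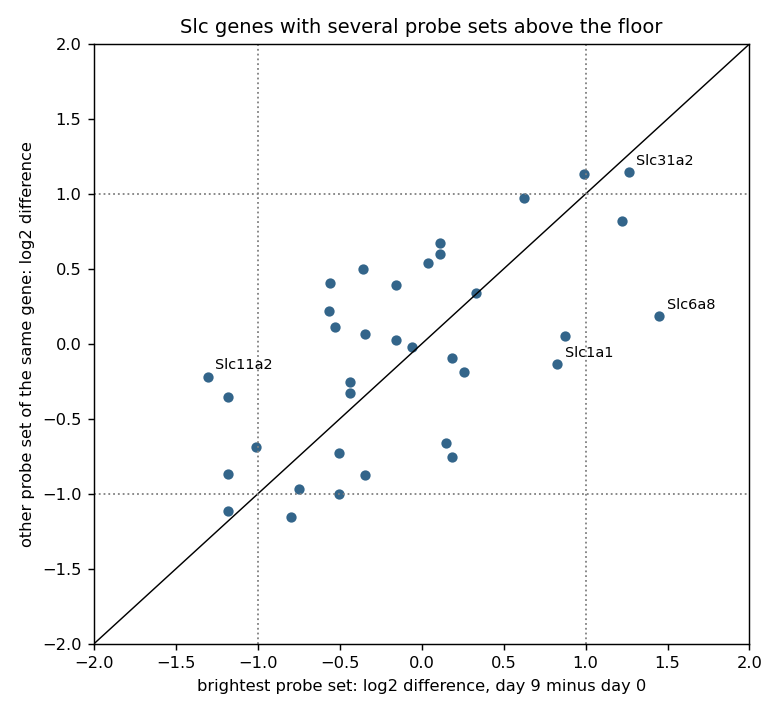
Log2 difference between days 9 and 0 for the brightest probe set of a gene (x axis) against each other probe set of that gene above 6 (y axis), 35 points for 28 Slc genes. The diagonal marks equality and dotted lines 2-fold. Slc31a2 lies near the diagonal (1.26 and 1.15), whereas Slc6a8 (1.45 and 0.18) and Slc11a2 (-1.31 and -0.22) lie far from it.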

How the data were processed

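The authors deposited log2 probe set values of 4 Affymetrix Rat Genome 230 2.0 arrays, made with RMA per the submitters' processing notes. RMA corrects background, brings arrays to a common distribution and summarises probes, so a shift common to most genes cannot be seen. Its software is not given in the sources used here, and base 2 was taken from the span of values. Of 31099 probe sets 20832 have 1 gene symbol in the platform annotation, 436 several and 9831 none, and 2 with an Slc symbol among several were not used. Each gene was represented by its brightest probe set, by the mean over all arrays. Symbols of all 141 members were found in the RefSeq table of GRCr8.

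No test was run, since a group is 1 array, and members are described by counts at 2-fold, medians and the same over all genes. The number of arrays limits the precision. Named genes are the members 2-fold or more apart in any of the 5 comparisons (38) and a fixed set of well-known carriers (14 more). Other members given as examples, and the genes whose promoters are shown, were chosen after their values were seen. The members, the lists and the substrate classes were chosen with earlier results of these data known. Counting at 2-fold was tested on simulated data. Alternatives were other floors, probe set choices, scalings and thresholds. Python 3.11.15, numpy 2.4.6, pandas 2.3.3 and matplotlib 3.10.9 were used.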

Additional observations from a re-analysis of the deposited data

How the results depend on the processing

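With 1 array per day no sample could be left out and no paired analysis was possible because each group has 1 sample. Signs of named genes were followed for the differences from day 0 only, in the settings that kept the gene as a member. There, no named gene changed sign where it was 2-fold apart. Elsewhere signs did turn: the day 9 difference of Slc4a7 was -0.36 as deposited and 0.07 with the mean over probe sets, and that of Slc46a3 was 0.60 and, after spike-in centring, -0.03. Values are given as higher and lower members. As deposited they were 8 and 5 on day 3, 11 and 16 on day 6 and 9 and 14 on day 9, with 0 and 6 from day 3 to day 6 and 1 and 1 from day 6 to day 9. Counts or medians not given here moved by no more than 1.5 times or by less than 0.1.

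With no floor, over 292 genes, 9 were lower on day 3, 1 was higher from day 3 to day 6 and 2 were lower from day 6 to day 9, and the medians were -0.032 on day 6, 0.015 on day 9 and -0.045 from day 3 to day 6. With a floor of 5 these counts were 8, 1 and 2. A floor of 8 left 87 genes, with 4, 7 and 5 higher on days 3, 6 and 9, 0 lower from day 6 to day 9, and a day 9 median of -0.24. With the mean over probe sets 132 genes reached 6, and 3 were lower on day 3, 7 higher on day 6 and 8 lower on day 9. Of the 14 members called lower on day 9, only 11 were among the 132, and 8 of the 11 stayed lower. Centring on the median gene left 8 lower on day 6, 1 higher and 3 lower from day 3 to day 6, and medians of -0.0004 on day 6, 0.017 on day 9 and -0.010 from day 3 to day 6.

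Centring on the spike-ins gave 4 and 10 on day 3, 2 and 30 on day 6 and 1 and 49 on day 9, 13 lower from day 3 to day 6, and 0 and 4 from day 6 to day 9. The medians were then -0.11, -0.55 and -0.72 on days 3, 6 and 9, -0.40 from day 3 to day 6 and -0.22 from day 6 to day 9. This follows from 1 shift per array. It left 21.6% of all genes lower on day 6 and 33.1% on day 9. Of the members called higher on day 9, 1 of 9 stayed so, and 14 of 14 called lower.

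At 1.5-fold the counts were 21 and 24 on day 3, 20 and 35 on day 6, 21 and 31 on day 9, 7 and 20 from day 3 to day 6 and 5 and 8 from day 6 to day 9. Within 1.5-fold of day 0 lay 68.1%, 61.0% and 63.1% of members on days 3, 6 and 9. Of all genes it was 79.8%, 65.1% and 68.3%. The share of all genes at 3-fold was not counted. At 3-fold the counts of members were 1 and 1, 1 and 6, 1 and 4, then 1 lower from day 3 to day 6, and 0 and 0 from day 6 to day 9. With values below 6 set to 6, 5 were higher on day 3 and 0 lower from day 6 to day 9. Signal over background limits Slc14a1, Slc5a11 and the other members that did not reach 6 on every array.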
